A study of Mus musculus with 9 samples.

Results

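The immediate early genes are transcribed within minutes of a stimulus and need no new protein synthesis for it. The genes described here are Egr1 and 9 others of this class, namely Egr2, Egr3, Fos, Fosb, Jun, Junb, Ier2, Atf3 and Dusp1, which make 10 of the 24318 genes in the deposited tables. Egr1 was chosen by its own measured values, since it was among the largest rises shared by both knockdowns, and the other 9 were listed with it as members of the same class. The values of Egr1 are therefore a description and carry no test.

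The libraries came from N2A cells, a line grown from a mouse neuroblastoma and therefore a single tumor-derived model of neuronal cells. The cells were transfected with a scramble siRNA, with siEXOSC3 against a structural subunit of the RNA exosome, or with siDDX1 against an RNA helicase of the DEAD-box family, and 3 cultures were sequenced for each. All 9 libraries share the parental line and the Lipofectamine transfection. The labels give the genotypes WT, EXOSC3 knockdown and DDX1 knockdown, and the treatment Untreated for all. Cells without transfection were not analysed here. Expression is given as FPKM, the number of sequenced fragments per kilobase of transcript after scaling to the depth of the library, in 1 table for each knockdown that repeats the 3 scramble libraries. The depth of each library is unknown here, because the FPKM tables give no read totals.

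Immediate early genes are switched on by signaling through the kinases ERK, JNK and p38, which act on transcription factors already present, such as SRF with its TCF partners and CREB. Most of their products are transcription factors themselves. EGR proteins are zinc finger factors that bind GC-rich sites, FOS and JUN proteins pair with each other to form AP-1, ATF3 is a stress-induced relative that pairs with JUN proteins, IER2 is a nuclear protein, and DUSP1 is a phosphatase that switches MAP kinases off. Their mRNAs are generally short-lived, and many carry AU-rich elements that recruit decay factors. In neurons the same genes are known as markers of activity.

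The targeted transcripts followed the labels. Exosc3 fell from 44.1 ± 1.56 FPKM in scramble to 6.84 ± 0.836 FPKM in siEXOSC3 cells (SD, n = 3), which is 15.5% of scramble, and Ddx1 fell from 125 ± 5.40 to 30.5 ± 3.73 FPKM in siDDX1 cells, which is 24.4%. Of 16 markers of neuroblastoma and sympathetic neurons, 13 had a mean of at least 1 FPKM in scramble, while Th, Nefl and Nefm were below it. Their summed level was between 638 and 702 FPKM in scramble, between 1072 and 1177 FPKM in siEXOSC3 and between 650 and 715 FPKM in siDDX1. Chgb alone went from 120 ± 8.32 FPKM in scramble to 359 ± 62.1 FPKM in siEXOSC3, and the other 15 markers summed to between 517 and 586 FPKM in scramble and between 743 and 780 FPKM in siEXOSC3. This higher sum in the siEXOSC3 libraries goes along with the results given for that knockdown, and its part in them was not tested. Markers of astrocytes, fibroblasts and immune cells each summed to at most 1.99 FPKM in any library. Oligodendrocyte and Schwann cell markers summed to between 2.67 and 3.76 FPKM over all libraries. Endothelial markers, nearly all of it Pecam1, summed to between 4.11 and 4.75 FPKM in scramble, 6.24 and 9.19 FPKM in siEXOSC3, and 5.04 and 5.77 FPKM in siDDX1, with Kdr at 0 throughout, and their part in the results was not tested either.

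The upstream sequences of 5 genes that the results turn on show which of the classical response elements lie close to each start. RefSeq promoter windows, which run from 250 bases before to 50 bases after a start, were at hand for 7 of the 10 genes. For Egr2, Junb, Jun, Fos and Dusp1 the bases before the start are printed 5′ to 3′ on the strand of the gene, up to the first exon of GENCODE vM1, from RefSeq's table for GRCm38.p6, and each was matched letter for letter to 1 place in NCBIM37 (mm9). Capitals mark the motifs found on either strand. The motifs searched were the CArG box bound by SRF, the CRE TGACGTCA bound by CREB and ATF proteins and its shorter core TGACG, the AP-1 site TGANTCA, the EGR site GCGNGGGCG, and the TATA box TATAAA. A CRE always holds this core too.
Egr2: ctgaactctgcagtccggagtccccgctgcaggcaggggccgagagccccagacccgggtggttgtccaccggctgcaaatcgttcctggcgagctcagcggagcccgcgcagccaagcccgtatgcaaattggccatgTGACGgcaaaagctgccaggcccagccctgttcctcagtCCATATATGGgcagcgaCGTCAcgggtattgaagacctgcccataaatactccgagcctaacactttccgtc
Junb: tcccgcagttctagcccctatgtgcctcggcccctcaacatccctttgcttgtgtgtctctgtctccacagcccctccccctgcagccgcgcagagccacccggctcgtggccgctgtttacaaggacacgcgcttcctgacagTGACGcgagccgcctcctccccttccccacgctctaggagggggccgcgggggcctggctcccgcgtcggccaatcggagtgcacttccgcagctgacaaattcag
Jun: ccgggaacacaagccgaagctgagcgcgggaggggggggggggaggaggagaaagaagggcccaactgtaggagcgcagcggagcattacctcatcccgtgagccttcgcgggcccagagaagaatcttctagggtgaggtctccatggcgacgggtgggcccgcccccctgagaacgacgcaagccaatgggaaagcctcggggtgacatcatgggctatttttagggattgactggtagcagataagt
Fos: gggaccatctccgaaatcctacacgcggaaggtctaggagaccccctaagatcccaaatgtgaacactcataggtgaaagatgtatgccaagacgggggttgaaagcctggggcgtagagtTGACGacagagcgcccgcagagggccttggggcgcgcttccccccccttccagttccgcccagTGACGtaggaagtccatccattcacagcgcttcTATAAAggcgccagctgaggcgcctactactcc
Dusp1: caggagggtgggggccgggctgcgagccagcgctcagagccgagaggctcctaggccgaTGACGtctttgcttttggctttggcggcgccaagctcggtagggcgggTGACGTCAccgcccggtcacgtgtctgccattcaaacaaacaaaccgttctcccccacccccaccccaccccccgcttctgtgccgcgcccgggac

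The Egr2 sequence lies at chr10:67000367-67000616 on the plus strand, inside the span of longer Egr2 transcripts but in no exon. RefSeq gives Egr2 5 windows, of which 4 hold a CArG box and 1 holds none of the motifs, and the printed one is the first of those with the most kinds of motif. Among the 5 printed sequences it was the only one with a CArG box, whose first base is at -72 from the start, with CRE cores at -111 and -55. The Fos sequence (chr12:86814590-86814839, plus strand) held CRE cores at -129 and -66 and a TATA box at -33. The Junb sequence (chr8:87502648-87502897, minus strand) held a CRE core at -106, and a TATA box begins at the RefSeq start itself, just past the printed bases. The Dusp1 sequence (chr17:26645465-26645667, minus strand) held a full CRE at -143 and a further core at -191. The Jun sequence (chr4:94718914-94719163, minus strand) held none of these letters. Of all 32851 windows of 300 bases in the RefSeq table, 1.63% held a CArG box, 1.79% a CRE, 20.8% a CRE core, 7.81% an AP-1 site, 5.55% an EGR site and 13.6% a TATA box. A match is a run of letters and not a shown binding site. Sequence more than 250 bases before a start was not searched, so elements there would be missed.

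In scramble cells, which gave the control level, the 10 transcripts differed widely in level. In the scramble columns of the siEXOSC3 table, Atf3 was highest with a mean of 38.8 FPKM (range 31.5 to 44.2), followed by Ier2 at 31.2 FPKM (26.0 to 36.3) and Junb at 30.7 FPKM (28.1 to 32.3). The ranges of Atf3 and Ier2 overlapped, as did those of Ier2 and Junb. Egr1 came next at 22.2 FPKM (19.4 to 27.1), which placed it above 75.3% of the 16292 genes with a value above 0. Below Egr1 were Jun at 12.04 FPKM, Dusp1 at 9.21 FPKM, Fos at 4.85 FPKM, Egr3 at 1.31 FPKM, Egr2 at 0.910 FPKM and Fosb at 0.528 FPKM, with no overlap between neighbours in this order. The order was identical in the scramble columns of the siDDX1 table, whose values are slightly lower, with a median ratio between the tables of 1.01 in each of the 3 scramble libraries.

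**Figure D1:**
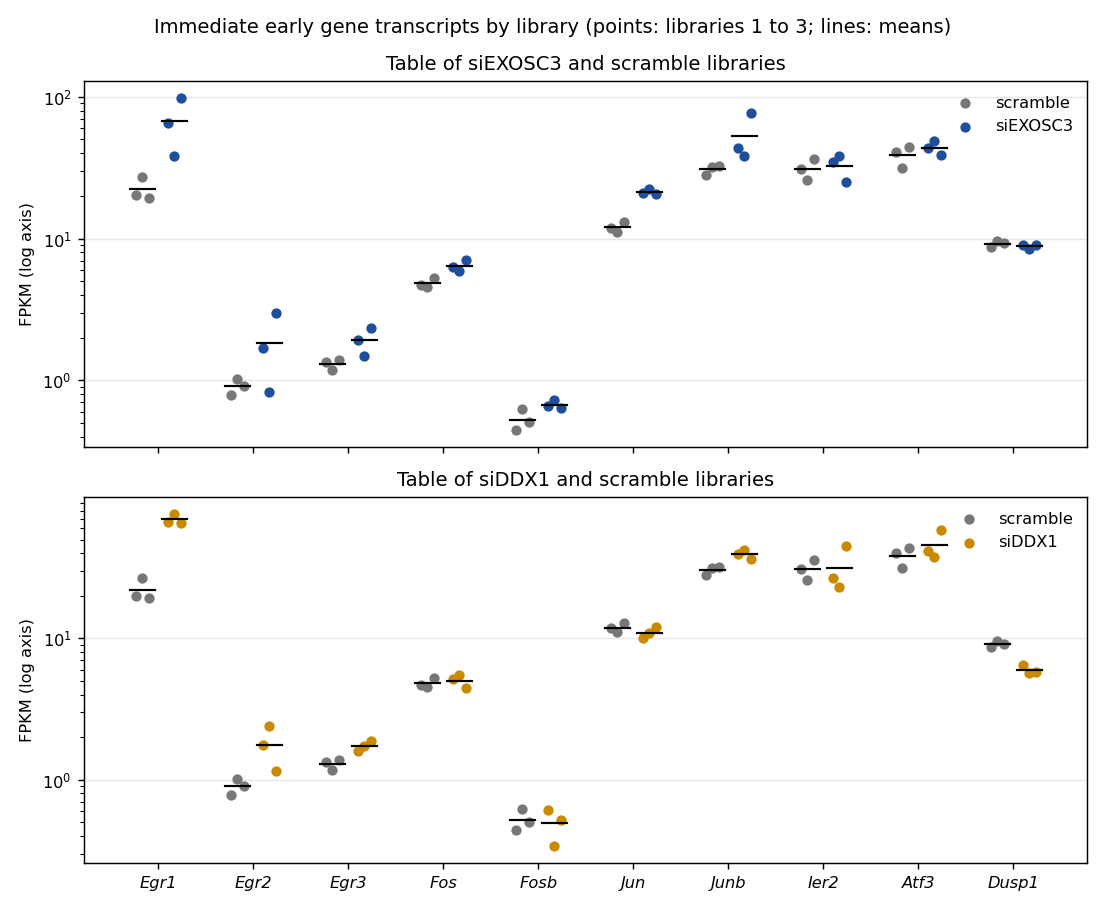
FPKM of the 10 immediate early genes in each library on a log axis, for the table of siEXOSC3 (upper panel, blue) and that of siDDX1 (lower panel, gold), with scramble in grey. Points are libraries 1 to 3 from left to right, lines are means. Egr1 lies above scramble in all 3 libraries of each knockdown, but spreads from 38 to 98.6 FPKM in siEXOSC3 and from 65.5 to 76.1 FPKM in siDDX1.

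Egr1 encodes the founding member of the EGR factors. Its gene is on chromosome 18 from 35020861 to 35024638 on the plus strand (NCBIM37). In the siEXOSC3 table the 3 scramble libraries held 20.1, 27.1 and 19.4 FPKM and the siEXOSC3 libraries 65.7, 38 and 98.6 FPKM. All siEXOSC3 libraries were higher than all scramble libraries, although they were far from each other. The means were 22.2 ± 4.25 and 67.4 ± 30.3 FPKM (SD, n = 3), a 3.03-fold difference, or 1.47 ± 0.29 (SE) on the log2(FPKM + 1) scale. In the siDDX1 table the scramble libraries held 19.99, 26.9 and 19.2 FPKM and the siDDX1 libraries 66.4, 76.1 and 65.5 FPKM. These groups did not overlap either, and the siDDX1 libraries lay close together. The means were 22.02 ± 4.25 and 69.3 ± 5.87 FPKM, a 3.15-fold difference, or 1.62 ± 0.12 on the log2 scale. By the smaller of its log2 differences Egr1 ranked 3 among 11054 genes tested in both tables, which is the property it was selected on. Both comparisons use the same scramble cultures. In such bulk libraries a change in every cell and a change in the share of cells that carry the transcript cannot be told apart. The gene Gm17507 overlaps Egr1 on the opposite strand, and the libraries were nondirectional, so that reads of the pair cannot be told apart.

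For the other 9 genes, knockdown was compared with scramble within each table by limma, with p-values adjusted over all genes tested. Fosb, with a mean below 1 FPKM over the 6 libraries, did not enter the test, which leaves 8 genes. In siEXOSC3 cells, 3 of the 8 rose (Jun, Junb and Fos) and 0 fell, or 37.5%, and the remaining 5 did not pass. At an unadjusted p of 0.05, 4 were higher and 0 lower. Over all 11242 genes tested, 32.4% passed, 16.7% higher and 15.7% lower, so that the share among the immediate early genes was near the background. Their median log2 difference was 0.34, compared with -0.01 over all genes. The libraries of the groups did not overlap for 4 of the 8 genes, all higher in siEXOSC3, against 49.7% of all genes. In siDDX1 cells, 1 of the 8 rose (Junb) and 1 fell (Dusp1), or 25.0%. Here 10.6% of 11104 genes passed, 5.61% higher and 5.03% lower, and the median log2 difference was 0.15 for the 8 genes. Groups did not overlap for 4 of the 8 in siDDX1, 3 of them higher, against 34.7% of all genes.

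**Figure D2:**
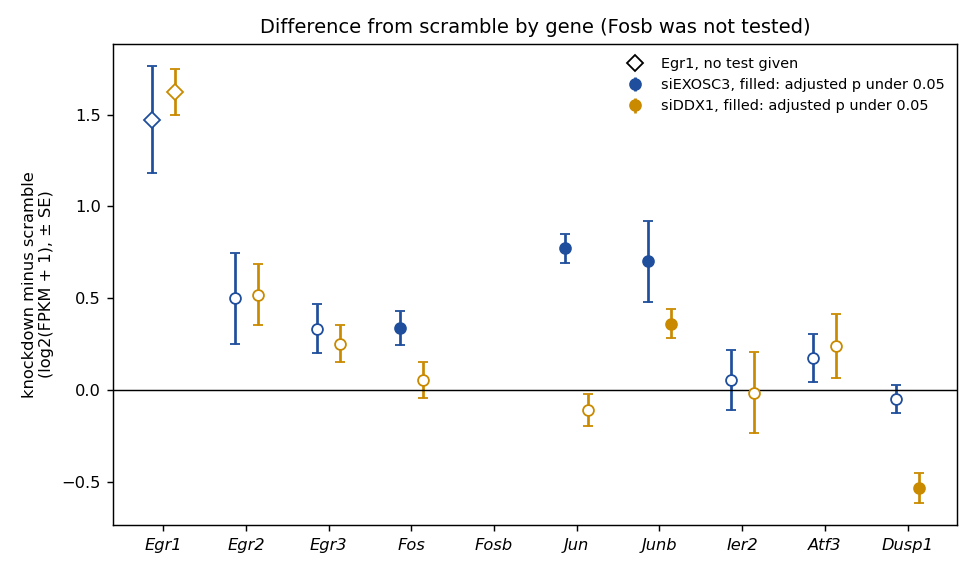
Difference from scramble in log2(FPKM + 1) for each gene, with standard errors, in siEXOSC3 (blue) and siDDX1 (gold). Filled circles passed an adjusted p of 0.05, open circles did not, and diamonds are Egr1, for which no test is given. Jun, Junb and Fos are filled in siEXOSC3, Junb and Dusp1 in siDDX1, with Dusp1 below 0.

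The close relatives of Egr1 had low levels. Egr2 (chromosome 10, 66998223 to 67004936, plus strand), a factor best known from hindbrain and Schwann cell development, measured 0.790, 1.02 and 0.916 FPKM in scramble and 1.68, 0.824 and 3.004 FPKM in siEXOSC3. One siEXOSC3 library lay within the scramble range, and the log2 difference of 0.50 ± 0.25 did not pass (adjusted p = 0.154). In the siDDX1 table Egr2 measured 0.784, 1.02 and 0.905 FPKM in scramble and 1.75, 2.40 and 1.16 FPKM in siDDX1. All siDDX1 libraries were higher, with a log2 difference of 0.52 ± 0.16 that did not pass (adjusted p = 0.0783). Since the scramble mean of Egr2 is below 1 FPKM, the gene entered the tests only through the knockdown libraries, and its p-values and its place in the counts over the 8 genes rest on that. Its difference ranged from 0.21 to 0.78 in siEXOSC3 and from 0.36 to 0.69 in siDDX1 when a library was left out.

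Egr3 (chromosome 14, 70477252 to 70479964, plus strand), which acts in muscle spindle and lymphocyte development, measured 1.34, 1.19 and 1.39 FPKM in scramble and 1.94, 1.48 and 2.35 FPKM in siEXOSC3. The groups did not overlap, and the log2 difference was 0.33 ± 0.13 (adjusted p = 0.0829). In siDDX1 cells Egr3 measured 1.60, 1.73 and 1.87 FPKM, again above all scramble libraries of that table (1.18 to 1.37 FPKM), with a log2 difference of 0.25 ± 0.10 (adjusted p = 0.129). Without siEXOSC3 replicate 2 the siEXOSC3 difference of Egr3 was 0.45 (adjusted p = 0.0192). Egr4 was at most 0.0524 FPKM in any library. Egr1 made up 90.8% ± 1.55 of the summed FPKM of the 4 Egr genes in scramble, 94.6% ± 0.383 in siEXOSC3 and 95.2% ± 0.360 in siDDX1 (SD, n = 3), values that contain the choice of Egr1.

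Among the AP-1 genes, Jun passed the test in siEXOSC3 and not in siDDX1. Jun (chromosome 4, 94715725 to 94718913, minus strand), a strong transcriptional activator among the JUN proteins, measured 11.9, 11.2 and 13.0 FPKM in scramble and 20.9, 22.4 and 20.5 FPKM in siEXOSC3. The groups were far apart and each was tight, with a 1.76-fold difference of the means. Jun rose by 0.77 ± 0.08 on the log2 scale (adjusted p = 8.35e-04). In siDDX1 cells Jun measured 10.1, 10.9 and 11.97 FPKM, compared with 11.8, 11.1 and 12.9 FPKM in the scramble columns of that table. These ranges overlapped, and the log2 difference was -0.11 ± 0.09 (adjusted p = 0.423). The difference between the knockdowns was not tested, because the tables were scaled separately. Jun passed in siEXOSC3 in each of the 6 fits that left out a library. The gene BC042782 overlaps Jun on the opposite strand, and reads of the pair cannot be told apart in these nondirectional libraries.

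Junb (chromosome 8, 87500811 to 87502617, minus strand), a JUN protein that often restrains JUN activity, was called higher in both knockdowns. It measured 28.1, 31.8 and 32.3 FPKM in scramble and 43.8, 38.2 and 76.9 FPKM in siEXOSC3, where library 3 stood far above the other siEXOSC3 libraries. The rise was 0.70 ± 0.22 on the log2 scale (adjusted p = 0.0406). In the siDDX1 table the scramble libraries held 27.9, 31.5 and 31.9 FPKM and the siDDX1 libraries 39.4, 42.4 and 36.4 FPKM. The groups did not overlap, and Junb rose by 0.36 ± 0.08 (adjusted p = 0.0277). Of the 6 fits that left out a library, the call held in 2 in siEXOSC3 and in 1 in siDDX1. In these fits the siEXOSC3 difference stayed between 0.40 and 0.90 and the siDDX1 difference between 0.30 and 0.42. The siEXOSC3 call was lost without scramble replicate 1 (adjusted p = 0.126), 2 (0.0892) or 3 (0.0977) and without siEXOSC3 replicate 1 (0.0647). The siDDX1 call was lost without scramble replicate 1 (0.115), 2 (0.0659) or 3 (0.0783) and without siDDX1 replicate 1 (0.0766) or 2 (0.0995). Leaving out siEXOSC3 replicate 3 lowered the siEXOSC3 difference of Junb to 0.40.

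Fos (chromosome 12, 86814840 to 86818223, plus strand), the partner of JUN proteins in the classical AP-1 dimer, measured 4.71, 4.54 and 5.31 FPKM in scramble and 6.29, 5.89 and 7.03 FPKM in siEXOSC3. All siEXOSC3 libraries were higher, and Fos rose by 0.34 ± 0.09 (adjusted p = 0.0268). This call was lost without scramble replicate 1 (0.0997) or 2 (0.0890) and without siEXOSC3 replicate 1 (0.0744) or 3 (0.0575). In siDDX1 cells Fos measured 5.13, 5.50 and 4.47 FPKM, overlapping the 4.67, 4.50 and 5.25 FPKM of scramble, with a log2 difference of 0.05 ± 0.10 (adjusted p = 0.753). Fosb (chromosome 7, 19888070 to 19895394, minus strand), a FOS protein known from long-lasting neuronal stimulation, was untested and measured 0.446, 0.626 and 0.511 FPKM in scramble, 0.665, 0.723 and 0.634 FPKM in siEXOSC3 and 0.614, 0.339 and 0.519 FPKM in siDDX1. All Fosb values in siEXOSC3 were above those of scramble, while those of siDDX1 overlapped them.

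The members' shares of their families were computed per library. Of the summed FPKM of Jun, Junb and Jund, Jun made up 22.3% ± 1.29 in scramble, 24.3% ± 6.35 in siEXOSC3 and 17.9% ± 2.11 in siDDX1 (SD, n = 3). The Jun share in siEXOSC3 ranged from 17.3% to 29.6%, on both sides of scramble, whereas in siDDX1 it ranged from 16.3% to 20.3%, below all scramble libraries (21.04% to 23.6%). Junb was the largest part throughout, with 57.01% ± 2.36 in scramble, 56.8% ± 7.44 in siEXOSC3 and 64.1% ± 2.62 in siDDX1. In the Fos family, Fosl2 held 70.8% ± 3.10 in scramble, 65.2% ± 2.02 in siEXOSC3 and 70.6% ± 1.22 in siDDX1, and Fos held 26.3% ± 3.24, 31.4% ± 1.63 and 26.6% ± 1.01. Fosl2 was thus the most abundant Fos family transcript in each group, and Fosl1 was listed at 0 in every scramble and siEXOSC3 library. These shares were not tested.

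Dusp1 (chromosome 17, 26642535 to 26645464, minus strand), the MAP kinase phosphatase of the set, was the only tested member that passed in the lower direction. It measured 8.63, 9.58 and 9.18 FPKM in scramble and 6.50, 5.67 and 5.82 FPKM in siDDX1. All siDDX1 libraries were lower than all scramble libraries, at 65.7% of the scramble mean, and Dusp1 fell by 0.53 on the log2 scale (SE 0.08, adjusted p = 0.00945). The call held in 5 of 6 fits that left out a library and was lost without scramble replicate 3 (adjusted p = 0.0541). In siEXOSC3 cells Dusp1 measured 9.07, 8.46 and 9.08 FPKM, overlapping scramble at 8.70, 9.66 and 9.28 FPKM, with a log2 difference of -0.05 ± 0.07 (adjusted p = 0.638).

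Atf3 and Ier2, whose scramble means were the highest of the set, did not pass in either comparison. Atf3 lies on chromosome 1 from 192994175 to 193007219 and Ier2 on chromosome 8 from 87185230 to 87186751, both on the minus strand. Atf3 measured 40.7, 31.5 and 44.2 FPKM in scramble and 43.5, 48.4 and 38.9 FPKM in siEXOSC3, with a log2 difference of 0.17 ± 0.13 (adjusted p = 0.324). In siDDX1 cells it measured 41.5, 37.3 and 58.7 FPKM against 40.3, 31.2 and 43.7 FPKM, a difference of 0.24 ± 0.17 (adjusted p = 0.392). Both pairs of ranges overlapped. Ier2 measured 31.2, 26.0 and 36.3 FPKM in scramble and 34.4, 38.2 and 25.2 FPKM in siEXOSC3, a log2 difference of 0.05 ± 0.16 (adjusted p = 0.817). In siDDX1 cells Ier2 measured 26.8, 23.1 and 44.7 FPKM against 30.9, 25.8 and 35.9 FPKM, a difference of -0.01 ± 0.22 (adjusted p = 0.972). The spread of Ier2 between cultures of 1 group was thus far wider than the difference between the group means.

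The cultures of a group differed in these genes, and not in the same direction for all. In siEXOSC3, library 2 was lowest, library 1 intermediate and library 3 highest for Egr1, Egr2, Egr3, Fos, Junb and Dusp1. The reverse order held for Fosb, Jun, Ier2 and Atf3. These orders were also the most common over all tested genes, with 27.5% and 30.7% of them. Library 3 exceeded library 2 by 1.35 log2 units for Egr1, 1.13 for Egr2 and 0.99 for Junb, wider than the spread of 99.8%, 99.5% and 99.1% of the tested genes, and the median spread over all of them was 0.23. For Jun the spread was 0.12, wider than 20.9% of genes. Exosc3 itself measured 6.84, 7.68 and 6.01 FPKM in siEXOSC3 libraries 1, 2 and 3, so that the library with least Egr1 held most residual Exosc3. The part of residual Exosc3 in the spread was not tested.

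In siDDX1 the order was library 3, 1, 2 from low to high for Egr1, Egr2, Fos and Junb (17.4% of tested genes), and library 2, 1, 3 for Ier2 and Atf3 (16.9%). The Egr1 spread of 0.21 was close to the median of 0.22 over all genes. The Ier2 spread of 0.92 was wider than that of 98.9% of genes and the Atf3 spread of 0.64 wider than that of 95.5%. In scramble, Egr1, Ier2 and Atf3 spread by 0.46, 0.47 and 0.48, each wider than about 96% of genes, with Egr1 highest in library 2 and Ier2 and Atf3 lowest there. In all 3 groups Egr1 was thus on the opposite side from Ier2 and Atf3 in library 2.

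**Figure D3:**
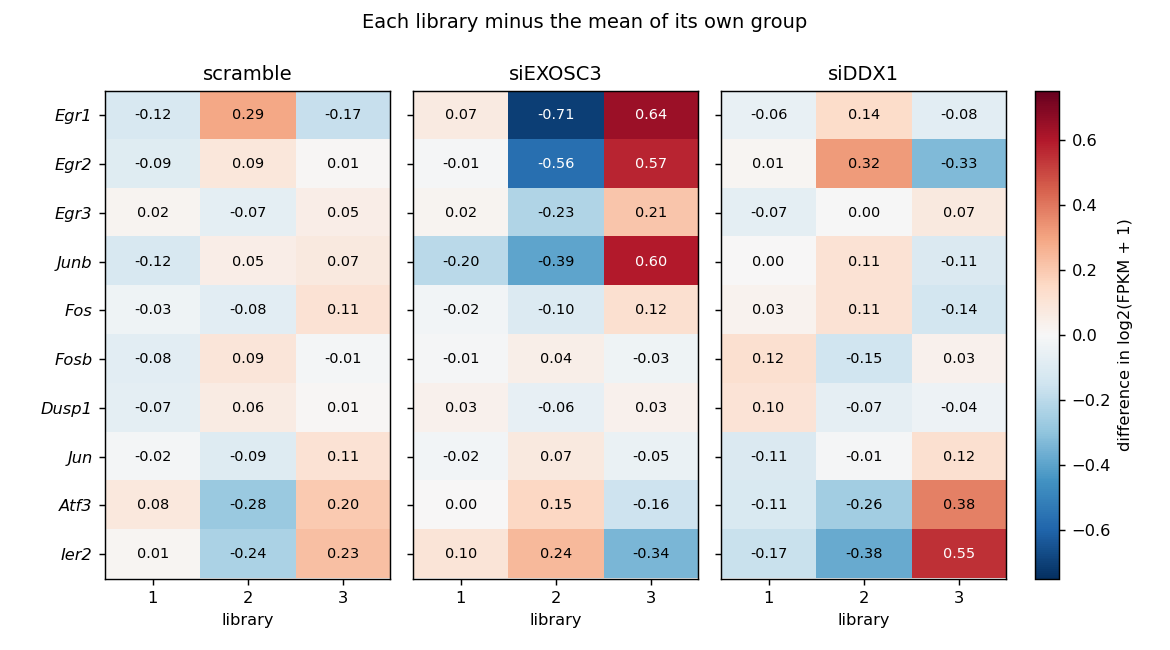
Each library's log2(FPKM + 1) minus the mean of its own group, for 10 genes (rows) and libraries 1 to 3 of scramble, siEXOSC3 and siDDX1 (columns), red above and blue below the mean. In siEXOSC3 library 2, Egr1, Egr2 and Junb are at -0.71, -0.56 and -0.39, while Ier2 is at 0.24.

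The genes whose pattern over libraries was most like that of Egr1 were ranked by the smaller of the Pearson correlations over the 6 libraries of each table, among 11053 genes. The libraries are shared by all points and both tables hold the same scramble cultures, so the values only describe. Znrf1, an E3 ubiquitin ligase gene, came first with 0.990, followed by Alk, a receptor tyrosine kinase gene that is often mutated in neuroblastoma, with 0.989, Tmtc2 with 0.989, Ift172 with 0.988 and AU040320 with 0.987. Alk measured 7.46, 8.54 and 7.29 FPKM in scramble and 13.6, 10.9 and 15.3 FPKM in siEXOSC3. In siDDX1 Alk measured 15.5, 15.9 and 13.1 FPKM. Of the immediate early genes, Junb ranked 212 (0.926), Egr3 615 (0.849) and Egr2 627 (0.848). The correlation of Dusp1 with Egr1 was -0.06 over siEXOSC3 and scramble and -0.94 over siDDX1 and scramble, and that of Jun was 0.79 and -0.62.

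Genes around the 10 were counted in 9 lists made for this description. Of 50 further immediate early genes, 40 were tested in each table. In siEXOSC3, 7 rose and 6 fell, and in siDDX1, 5 rose and 7 fell, with medians of 0.05 and -0.0015. The share past the threshold was 32.5% in siEXOSC3, against 32.4% of all genes, and 30.0% in siDDX1, against 10.6%. Btg2, an antiproliferative gene, rose by 1.13 in siEXOSC3, from 6.59 ± 0.356 to 15.8 ± 2.61 FPKM (adjusted p = 8.93e-04), and by 0.75 in siDDX1, from 6.53 ± 0.343 to 11.7 ± 1.33 FPKM (adjusted p = 0.00632). Ier3, a stress-responsive survival gene, rose by 0.91 in siEXOSC3, from 37.7 ± 1.95 to 73.4 ± 19.3 FPKM (adjusted p = 0.00673), and by 0.53 in siDDX1, to 54.7 ± 5.70 FPKM (adjusted p = 0.0107). The siDDX1 call of Ier3 was lost without scramble replicate 1 (0.0654) or 3 (0.0587). Id2, an inhibitor of helix-loop-helix factors, rose in siEXOSC3 from 17.4 ± 2.25 to 29.1 ± 1.72 FPKM (adjusted p = 0.00232). Gadd45b, a stress gene that acts upstream of p38 and JNK, fell in siDDX1 from 6.62 ± 0.993 to 4.14 ± 0.169 FPKM (adjusted p = 0.0170), a call lost without scramble replicate 1 (0.0588) or 3 (0.0602) or siDDX1 replicate 2 (0.0656).

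Of the 4 EGR cofactors tested, 3 passed in siEXOSC3, where 32.4% of all genes did, and 1 in siDDX1, where 10.6% did. Nab2, an EGR corepressor that is itself a target of EGR factors, rose in siDDX1 from 20.3 ± 2.29 to 42.6 ± 7.20 FPKM, or by 1.03 ± 0.13 on the log2 scale (adjusted p = 0.00656), and passed in all 6 fits without 1 library. In siEXOSC3 Nab2 measured 25.7 ± 5.27 against 20.4 ± 2.27 FPKM (adjusted p = 0.125). Its relative Nab1 rose in siEXOSC3 from 17.5 ± 0.337 to 21.0 ± 0.609 FPKM (adjusted p = 0.0179). This call was lost without scramble replicate 1 (0.0641), 2 (0.0636) or 3 (0.0609), while the log2 difference stayed between 0.23 and 0.29 in every alternative. The coactivators Crebbp and Ep300, which are histone acetyltransferases, fell in siEXOSC3 by 0.53 and 0.31 (adjusted p = 0.00329 and 0.00773), and neither was among the calls in siDDX1.

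Among 13 tested transcription factors of the SRF, TCF, MRTF and CREB group, Elk3, a TCF partner of SRF, rose in siEXOSC3 from 10.7 ± 0.189 to 14.4 ± 2.37 FPKM (adjusted p = 0.0253) and Atf1, a CREB relative, fell from 42.9 ± 2.16 to 33.9 ± 2.48 FPKM (adjusted p = 0.0126). The 2 calls make 15.4% of the list, against 32.4% of all genes. Elk3 was lost without scramble replicate 1 (0.0880), 2 (0.0647) or 3 (0.0763), and Atf1 without scramble replicate 1 (0.0643) or siEXOSC3 replicate 1 (0.0521). By the limma test 0 of the 13 passed in siDDX1, where 1 had an unadjusted p under 0.05. Srf itself measured 8.93 ± 0.659 FPKM in scramble and 7.89 ± 0.744 FPKM in siEXOSC3 (adjusted p = 0.198).

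Of 14 tested ERK pathway kinases, 3 (21.4%) rose in siEXOSC3, against 16.7% of all genes. Mapk3, which encodes ERK1, rose from 20.7 ± 2.16 to 34.7 ± 7.38 FPKM (adjusted p = 0.00884) and Araf from 26.9 ± 1.02 to 37.3 ± 2.91 FPKM (adjusted p = 0.00416). Of 12 tested JNK and p38 kinases, 3 rose and 3 fell in siEXOSC3 (25.0% each, against 16.7% and 15.7% of all genes). The 3 JNK genes were those that rose: Mapk8 from 12.1 ± 0.242 to 15.6 ± 0.475 FPKM (adjusted p = 0.00738), Mapk9 from 17.4 ± 0.520 to 24.0 ± 2.51 FPKM (adjusted p = 0.00742), and Mapk10, the neuronal JNK gene, from 3.68 ± 0.280 to 8.17 ± 0.612 FPKM (adjusted p = 6.39e-04). In siDDX1, limma called 0 of the 14 ERK pathway kinases, 4 of which had an unadjusted p under 0.05, and 0 of the 12 JNK and p38 kinases, of which 2 did.

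Most of the listed ERK feedback genes encode products that dampen ERK or other MAP kinase signaling. In siEXOSC3, 3 of 19 tested rose and 0 fell, and in siDDX1, 1 of 18 rose and 0 fell by limma. The shares that rose, 15.8% and 5.6%, were near the 16.7% and 5.61% over all genes. At an unadjusted p under 0.05, 3 were higher and 1 lower in siEXOSC3, and 2 higher and 1 lower in siDDX1. Dusp6, an ERK phosphatase, rose from 59.3 ± 4.99 to 119 ± 22.2 FPKM in siEXOSC3 (adjusted p = 0.00195) and from 58.7 ± 4.83 to 89.3 ± 18.5 FPKM in siDDX1 (adjusted p = 0.0314). The siDDX1 call of Dusp6 was lost without scramble replicate 1 (0.113), 2 (0.0986) or 3 (0.0893), without siDDX1 replicate 2 (0.0663), without the filter on low values (0.0785) and with quantile normalization (0.0529). Dusp8 rose in siEXOSC3 from 2.19 ± 0.304 to 4.23 ± 0.201 FPKM (adjusted p = 0.00274) and Spred3, an inhibitor of RAS signaling, from 5.29 ± 0.237 to 9.24 ± 1.57 FPKM (adjusted p = 0.00416).

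Of the AP-1 partners outside the set, 2 of 11 rose in siEXOSC3 and 1 of 12 in siDDX1, and 0 fell by limma. The shares that rose, 18.2% and 8.3%, stand beside 16.7% and 5.61% of all genes. At an unadjusted p under 0.05, 2 were higher and 1 lower in siEXOSC3, and 4 higher and 1 lower in siDDX1. Batf3, with 0.754 FPKM in scramble and 1.48 FPKM in siDDX1, entered the siDDX1 test only through the knockdown libraries. Ddit3, a stress-induced factor that pairs with C/EBP proteins, rose from 386 ± 29.1 to 597 ± 119 FPKM in siEXOSC3 (adjusted p = 0.0145) and from 383 ± 29.6 to 571 ± 110 FPKM in siDDX1 (adjusted p = 0.0420). The siEXOSC3 call was lost without scramble replicate 3 (0.0610) or siEXOSC3 replicate 1 (0.0569), and the siDDX1 call was lost without any 1 of the scramble replicates or siDDX1 replicates 1 and 2, at most with 0.149 without scramble replicate 3, and also without the filter (0.0930) or the intensity trend (0.0509) of the test. Jund rose in siEXOSC3 from 11.2 ± 1.59 to 17.1 ± 3.37 FPKM (adjusted p = 0.0180). This call was lost without scramble replicate 1 (0.0733) or 2 (0.0634), while the log2 difference stayed between 0.42 and 0.67 in every alternative.

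Of 22 tested genes for AU-rich element binding and mRNA decay, 2 rose and 4 fell in siEXOSC3, and limma called 0 in siDDX1, where 4 had an unadjusted p under 0.05. The 27.3% past the threshold in siEXOSC3 was below the 32.4% of all genes. Pan3, a deadenylase subunit, fell from 17.4 ± 0.702 to 12.8 ± 0.357 FPKM (adjusted p = 0.00408) and Tial1, which binds AU-rich RNA, from 35.1 ± 0.977 to 28.5 ± 2.06 FPKM (adjusted p = 0.0168). Cnot6l, another deadenylase gene, rose from 16.0 ± 0.404 to 19.4 ± 1.49 FPKM (adjusted p = 0.0291). The call of Tial1 was lost without scramble replicate 1 (0.0782), 2 (0.0520) or 3 (0.0505) and without siEXOSC3 replicate 1 (0.0670). That of Cnot6l was lost without any 1 of the scramble replicates or siEXOSC3 replicates 1 and 3, at most with 0.0971 without scramble replicate 3.

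Of 15 listed genes that respond to MRTF or YAP, 8 were tested. The rest, among them Cyr61, Ctgf and Ankrd1, had means under 1 FPKM, so the counts do not cover them. Of the 8, 2 rose and 3 fell in siEXOSC3 and 0 rose and 2 fell in siDDX1 by limma. At an unadjusted p under 0.05, 1 was higher and 3 were lower in siDDX1. The shares past the threshold were 62.5% and 25.0%, against 32.4% and 10.6% of all genes. Myl9, a myosin light chain gene, fell from 16.6 ± 2.47 to 11.9 ± 1.02 FPKM in siEXOSC3 (adjusted p = 0.0172) and from 16.5 ± 2.47 to 8.98 ± 0.512 FPKM in siDDX1 (adjusted p = 0.00693). The tropomyosin gene Tpm2 rose in siEXOSC3 from 8.40 ± 1.21 to 16.0 ± 2.01 FPKM (adjusted p = 0.00233), and smooth muscle actin Acta2 fell from 9.72 ± 1.36 to 6.54 ± 0.535 FPKM (adjusted p = 0.0108). Tpm1 fell in siDDX1 from 92.2 ± 3.52 to 67.1 ± 5.50 FPKM (adjusted p = 0.0105). This call was lost without scramble replicate 1 (0.0618) or 3 (0.0590), while the log2 difference stayed between -0.52 and -0.41 in every alternative.

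**Figure D4:**
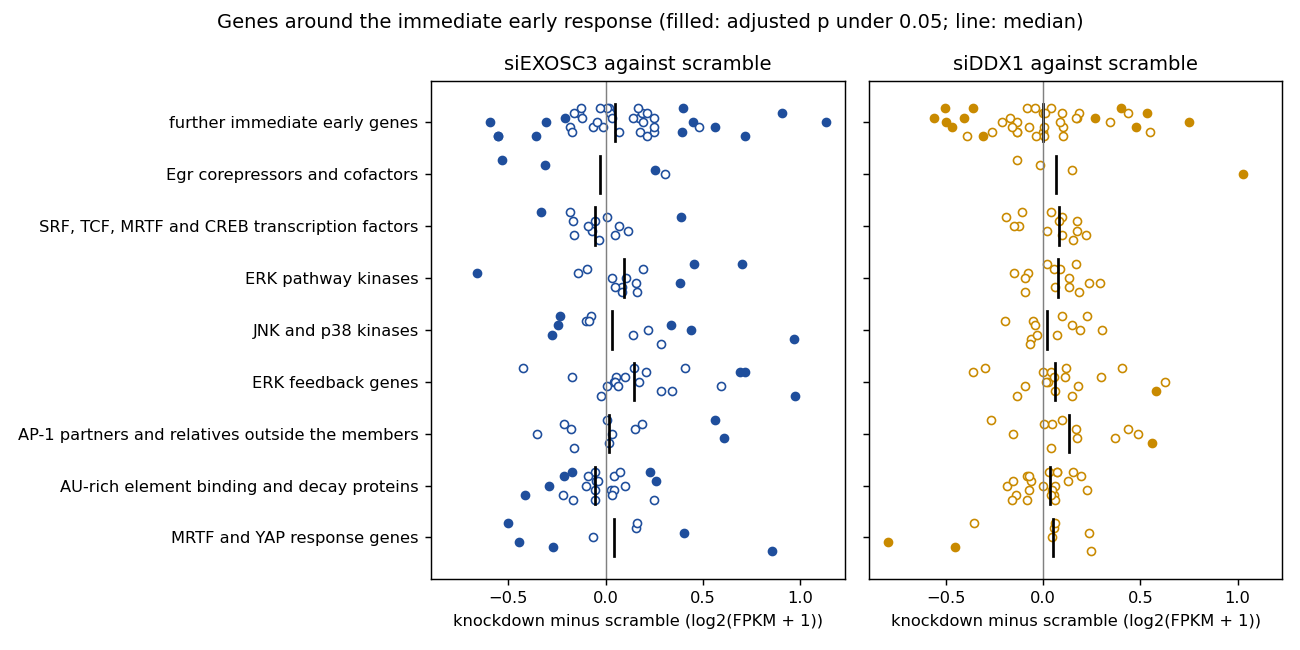
Difference from scramble in log2(FPKM + 1) for each tested gene of 9 lists (rows), in siEXOSC3 (left) and siDDX1 (right). Filled points passed an adjusted p of 0.05 and the black line is the list's median. Most lists hold filled points on both sides of 0 in siEXOSC3, while 4 lists hold none in siDDX1.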

How the data were processed

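Total RNA from 9 cultures of N2A cells was depleted of rRNA and sequenced as nondirectional libraries. The authors aligned reads to mm9 with TopHat 2.1.0, sorted them with SAMtools and ran Cuffdiff 2.2.1 on each knockdown against scramble. The gene annotation and library normalization are not given in the sources used here. The authors deposited FPKM for 24318 genes in 2 tables, 1 for each knockdown beside the same 3 scramble libraries. Depth is not recoverable from them.

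From these, log2(FPKM + 1) was tested by limma 3.58.1 in R 4.3.3 (eBayes with trend, two-sided, no covariates), leaving out genes whose mean over a table's 6 libraries was under 1 FPKM, with Benjamini-Hochberg adjustment over all tested genes and a threshold of 0.05. A pseudocount of 1 understates changes of low genes. With 3 libraries against 3, an exact permutation test of 1 gene cannot go below p = 0.1. The tables were scaled separately, so tests stay within a table. The test was checked on simulated data with independent normal noise, in which each changed gene differed by 1 log2 unit, up or down. Of 200 changed genes, 188 were recovered in siEXOSC3 (11242 genes) and 177 in siDDX1 (11104 genes), with 5 and 4 false calls. Smaller differences, such as those of the tested members other than Egr1, were not simulated.

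The genes and lists were chosen with earlier results of these data known. Text names all 10 genes, per list up to 3 called genes with the largest difference in each comparison and up to 3 uncalled ones, the targets, and the 5 genes most like Egr1. Positions are from GENCODE vM1 (NCBIM37). The alternatives were another pseudocount, filter, threshold or normalization, no trend, the replicate block, and leaving out each library. R-loop data were not analysed here. A result on 1 gene that the naming rule covers is not reported here.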

Additional observations from a re-analysis of the deposited data

How the results depend on the processing

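Egr1 stayed higher in each alternative, between 1.15 (without siEXOSC3 replicate 3) and 1.83 (without siEXOSC3 replicate 2) in siEXOSC3 and between 1.54 and 1.77 in siDDX1. Of the 8 tested members, the 3 past the threshold in siEXOSC3 became 1 (Jun) without a filter on low values and 1 (Jun) at an adjusted p of 0.01, and 1 to 5 when a library was left out. The 2 in siDDX1 became 1 (Dusp1) without the filter and 1 (Dusp1) at 0.01, and 0 to 3 when a library was left out, with 0 without scramble replicate 3. Over all genes, the 3644 calls in siEXOSC3 became 1349 at 0.01 and 1607 to 4886 with a library left out, and the 1182 in siDDX1 became 717 without the filter, 183 at 0.01 and 163 to 3527 with a library left out. Calls lost without the filter were Fos (0.0586), Junb (0.0990) and Elk3 (0.0575) in siEXOSC3 and Junb (0.0575), Dusp6 and Ddit3 in siDDX1. Junb in siEXOSC3 also missed the threshold without the intensity trend (0.0521). Small differences changed sign when a library was left out, with ranges of -0.067 to 0.22 for Ier2 in siEXOSC3, -0.0021 to 0.12 for Fos in siDDX1 and -0.29 to 0.17 for Ier2 in siDDX1, where median centring also gave 0.011. The cause of these shifts was not tested.

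Replicate numbers are shared by the groups. The deviations of same-numbered libraries correlated at 0.03, -0.31 and -0.13 in siEXOSC3 and at -0.01, 0.38 and 0.37 in siDDX1. Scramble library 2 with siDDX1 library 3 gave -0.37, and scramble library 3 with siDDX1 library 2 gave -0.38. Whether the numbers pair the samples was not tested. With the replicate block, siDDX1 had 1893 calls and siEXOSC3 2449, and Nab1 (0.0624) and Cnot6l (0.0786) were lost in siEXOSC3. The siDDX1 count over the 8 members rises by 1 with the block and with siDDX1 replicate 3 left out, through Egr2, which entered the test only through the knockdown libraries. The files give no read totals, so no counting error was computed for values near 1 FPKM, such as those of Egr2, Egr3 and Fosb.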
